A study of Homo sapiens with 6 samples.

Results

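CTCF and SMC1 occupancy was examined at 10 imprinted genes chosen as loci of CTCF insulation, H19, IGF2, KCNQ1OT1, DLK1, MEG3, SGCE, PEG10, PEG3, SNRPN and GNAS, out of 59792 genes in the RefSeq table of GRCh38.p14. The genes were taken by name, each gene body was extended by 50 kb on both sides, and overlapping windows were merged. This gave 8 windows that span 1.39 Mb, because DLK1 was joined to MEG3 and SGCE to PEG10. The windows held 61 of the 65597 nuclear peaks in the 6 deposited peak lists.

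Imprinted genes are transcribed from only the maternal or only the paternal copy. DNA methylation laid down in the germ line at an imprinting control region marks the parent from which a copy came. At H19 and IGF2, CTCF binds the unmethylated maternal control region and separates IGF2 from enhancers beyond H19, whereas methylation of the paternal copy prevents binding there. Cohesin, the ring-shaped complex to which SMC1 belongs, extrudes chromatin loops and is held at CTCF sites, so that the position of both proteins shapes which enhancers a promoter can reach.

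All libraries came from IMR90, a diploid line of human fetal lung fibroblasts that stops dividing after serial passaging. All sample titles begin with the same label, whose meaning they do not give. In CUT&Tag, an antibody tethers a transposase to the chromatin that its target occupies, and the DNA released there is sequenced. Each antibody, against CTCF or against the cohesin subunit SMC1, was used on proliferating control cells of low passage, on cells treated with ICM (inflachromene, an inhibitor that binds the chromatin proteins HMGB1 and HMGB2), and on cells of high passage that were senescent, with 1 library per group. The comparison asks where the insulator protein and cohesin sit in growth-arrested cells relative to proliferating ones.

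The p number in the sample titles was 21 for the CTCF control library, 16 for CTCF after ICM and 34 for senescent CTCF, and it was 16, 16 and 34 for the corresponding SMC1 libraries. For CTCF, control and ICM-treated cells therefore differed in p number as well as in treatment, and these cannot be told apart. The CTCF library of treated cells was labelled with 6 days of ICM, and the matching SMC1 library with no duration. Neither the passages nor the treatments were replicated, so no difference between conditions could be tested. Reads were not assigned to the maternal or paternal copy, so occupancy of one copy and of both cannot be told apart.

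The RefSeq promoter windows of 3 genes are printed here. Whether a peak covers such a window depends on the width of the peak as well as on where its summit lies. The windows below run from 250 bases before to 50 bases after the RefSeq start on GRCh38.p14, each 5′ to 3′ on the strand of the gene, with CpG dinucleotides (the bases that carry imprinting methylation) in capitals. H19 lies on the minus strand at chr11:2001217-2001516, MEG3 on the plus strand at chr14:100825858-100826157 and SNURF, the upstream reading frame of SNRPN, on the plus strand at chr15:24954737-24955036.
H19: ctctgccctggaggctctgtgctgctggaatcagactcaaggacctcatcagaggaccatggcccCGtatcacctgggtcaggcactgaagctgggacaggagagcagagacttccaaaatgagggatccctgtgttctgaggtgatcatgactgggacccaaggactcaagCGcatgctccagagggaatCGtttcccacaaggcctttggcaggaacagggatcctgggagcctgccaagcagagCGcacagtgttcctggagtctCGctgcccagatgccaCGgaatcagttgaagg
MEG3: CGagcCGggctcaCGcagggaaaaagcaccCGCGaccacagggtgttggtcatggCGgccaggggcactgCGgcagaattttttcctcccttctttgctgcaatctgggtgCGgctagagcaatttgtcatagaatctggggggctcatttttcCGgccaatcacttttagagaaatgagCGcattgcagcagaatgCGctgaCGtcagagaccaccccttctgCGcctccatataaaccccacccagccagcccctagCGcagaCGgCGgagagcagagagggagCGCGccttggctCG
SNURF: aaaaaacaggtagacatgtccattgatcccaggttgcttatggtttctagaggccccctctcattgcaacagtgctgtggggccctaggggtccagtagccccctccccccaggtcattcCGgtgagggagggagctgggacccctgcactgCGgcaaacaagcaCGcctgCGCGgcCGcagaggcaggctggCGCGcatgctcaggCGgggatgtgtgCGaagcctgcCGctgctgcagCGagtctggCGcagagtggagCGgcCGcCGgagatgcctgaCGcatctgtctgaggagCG

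The H19 window was covered by a CTCF peak in all 3 CTCF lists, the MEG3 window by the CTCF peak of ICM-treated cells and of no other list, and the SNURF window by no peak of either antibody. At MEG3 the CTCF summit was at the same base in all 3 lists, and the peak was widest after ICM. The printed H19 window starts from a long RefSeq transcript and is not separated from the control region (below). The H19 window held 6 CpGs, against 19 at MEG3, 18 at SNURF and a median of 14 over 35116 RefSeq promoter windows of the same length. The sequence table covered 4 of the 10 genes with 14 windows.

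Among these windows, most peaks lay at H19 and IGF2 on chromosome 11. The H19 window (106 kb) held 21 peaks and the IGF2 window (120 kb) held 22, together most of the 61. These were 198 and 183 peaks per Mb over the 6 lists, against 15.3 to 38.4 per Mb in the other windows that held any. The DLK1/MEG3 window held 9 peaks in 234 kb, SGCE/PEG10 held 4 in 185 kb, KCNQ1OT1 held 3 in 192 kb and PEG3 held 2 in 131 kb. SNRPN (255 kb) and GNAS (171 kb) held 0 peaks in all 6 lists. The density of peaks over the genome was not computed, so no window is called rich or poor against it.

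Peaks were counted per list. In the full lists the counts were higher in senescent than in control cells for both antibodies. For CTCF the order turned when the lists were cut to equal length by highest signal (8 in control, 6 in senescent cells). With the cut by total signal the order was kept (8 in control, 9 in senescent cells). CTCF had 8 peaks in the control list, 8 after ICM and 12 in the senescent list, which is 0.171%, 0.119% and 0.140% of the nuclear peaks of each list. The senescent CTCF list was the longest in full, with 8577 peaks against 4673 in control, and the share of its peaks at these genes was no higher. SMC1 had 8, 12 and 13 peaks, or 0.0538%, 0.0674% and 0.101% of lists of 14883, 17809 and 12927 peaks. For SMC1 the senescent list was the shortest, yet it held the most peaks at these genes. Of its 13 peaks, 3 were parts of 1 stretch at H19, where the ICM list had 2 and the control list 1. With overlapping peaks joined (below), SMC1 was at 11 sites in senescent cells, 11 after ICM and 8 in control. The exact (Clopper-Pearson) 95% interval was 0.0536 to 0.172% in senescent and 0.0232 to 0.106% in control cells, and the intervals overlapped. These intervals, here and below, cover counting error only.

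**Figure D1:**
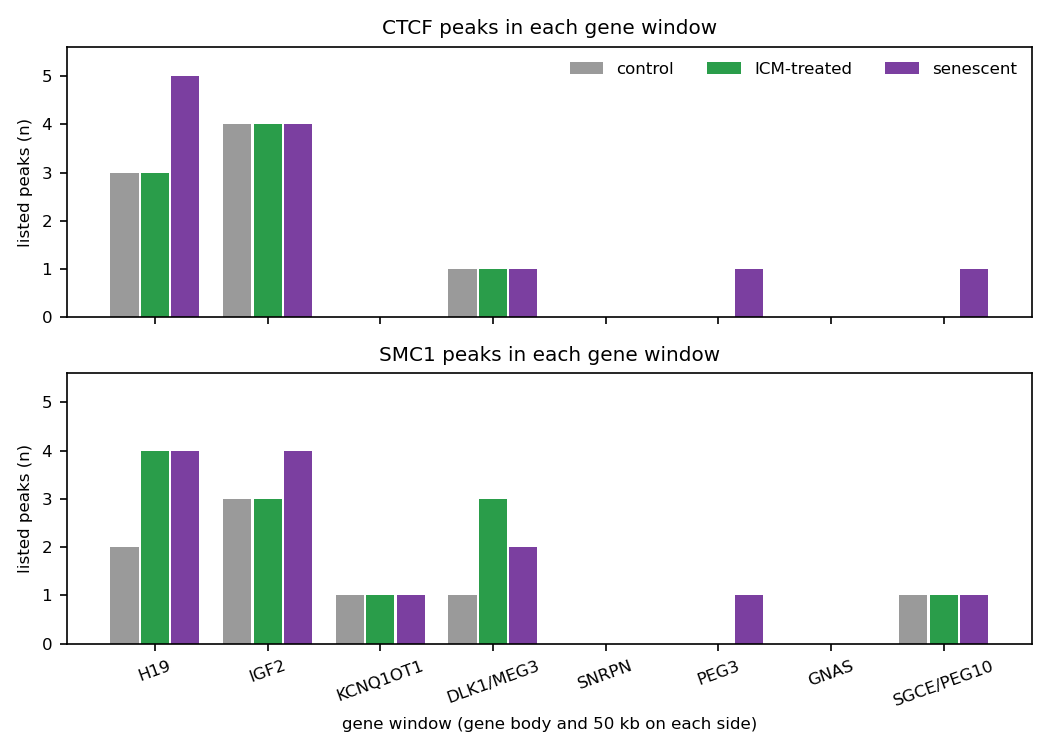
Number of listed CTCF and SMC1 peaks in each window of imprinted genes, for control, ICM-treated and senescent cells (1 library each). The H19 and IGF2 windows held 21 and 22 of the 61 peaks, and SNRPN and GNAS held 0.

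Peaks of all 6 lists that overlapped were joined into 17 sites, a grouping chosen after the data were seen. CTCF occupied the same 8 sites in control and ICM-treated cells, and senescent cells kept these 8 and added 3. Over the whole genome 41.4% of CTCF sites joined in this way were in all 3 CTCF lists, and here 8 of 11 were. The 3 sites listed for CTCF in senescent cells alone lay downstream of H19, inside PEG3 and inside PEG10. By highest signal these 3 peaks stood low in their list, at percentiles 14, 4.1 and 6.81, below the level at which that list has the length of the control list. In the genome, 31.7% of CTCF loci joined by summits were in the senescent list alone, and here 7 of 16 were. These 7 include the 3 sites above. The others lay at sites with CTCF in all 3 lists, where the senescent summit had moved or the peak was split. Those sites were near the start of MRPL23, at H19 and upstream of IGF2 (described below). SMC1 was listed at 8 sites in control cells, 11 after ICM and 11 in senescent cells, and at 5 of its 15 sites in all 3 lists, against 36.9% of SMC1 sites over the genome. Of the 17 sites, 9 carried both proteins, 2 carried CTCF alone and 6 carried SMC1 alone. The share of such sites over the genome was not computed, so this split is not read as a trait of these genes.

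A stricter rule splits sites into more loci, so a lower share in all 3 lists can follow from the rule itself. When peaks were joined only if windows of 100 bp around their summits (the midpoint of the stretch of highest signal) overlapped by at least 1 bp, CTCF loci at these genes numbered 16. Of these, 5 (31.2%, exact 95% interval 11 to 58.7%) were in all 3 lists, against 26.9% of CTCF loci over the genome. For SMC1, 2 of 23 loci (8.70%, exact 95% interval 1.07 to 28.0%) were in all 3 lists, against 20.2% over the genome. Both intervals included the share over the genome.

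H19, a long noncoding RNA made from the maternal copy, had the highest ranked CTCF peak by total signal of all these genes in control and ICM-treated cells, and the second in senescent cells after IGF2. In control cells it spanned 5695 bp at chr11:1997887-2003581 with a total signal (coverage summed over the peak) of 125776, rank 40 of 4673, which is the 99.2nd percentile of its list. In ICM-treated cells it spanned 6128 bp at chr11:1997851-2003978 with a total signal of 205575, rank 31 of 6728 and the 99.6th percentile. Signal has no common scale between lists, so ranks within a list are what can be set side by side. Both summits were at 2002593, to the base, 1327 bp upstream of the H19 5′ end that RefSeq gives (2001266).

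In senescent cells the same stretch was listed as 2 CTCF peaks. One lay largely over H19 as RefSeq draws it, at chr11:1997851-2001612 (total signal 40114, 97.9th percentile). The other lay upstream of the RefSeq 5′ end, at chr11:2001843-2003437 (33127, 96.2nd percentile). Together they reached from near one end of the control peak to near the other. The gap between them lay just upstream of the H19 start that RefSeq gives. By highest signal, the value at the tallest point, H19 stood lower in the list, at the 84.8th percentile in control, the 88.5th after ICM, and the 46.3rd and 69.0th for the 2 senescent peaks. The site was thus wide and rich in summed coverage, more than it was tall.

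SMC1 was listed at H19 in all 3 conditions, as a narrower signal that was split further in treated and senescent cells. The control list had 1 SMC1 peak there (chr11:2001927-2003291, 57.1st percentile by total signal). ICM-treated cells had 2, at the 88.7th and 78.3rd percentile, of which the former lay over the H19 gene body as RefSeq draws it. Senescent cells had 3, at the 32.4th, 83.7th and 88.0th percentile, and they spanned chr11:1997851-2003281. The SMC1 summit upstream of the RefSeq 5′ end was 274 bp from that of CTCF in control cells, at 0 bp after ICM and 48 bp away in senescent cells. Within the RefSeq span of H19, a CTCF and an SMC1 summit of senescent cells were 19 bp apart.

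The H19 control region was placed from 1 to 6 kb upstream of the RefSeq 5′ end, and all 6 lists had a peak overlapping it. That 5′ end belongs to a long transcript that starts close to the CTCF summits, so a placement from 2 to 7 kb upstream of MIR675, the microRNA gene inside H19, was added after the data were seen (chr11:1998831-2003831). All 6 lists had a peak there as well. This placement holds the summits of both senescent CTCF peaks and the H19 promoter window printed above. Positions given as inside or upstream of H19 therefore follow the RefSeq span and do not separate the gene from its control region. RefSeq also draws MRPL23, a mitochondrial ribosomal protein gene on the opposite strand, across this whole stretch, so the summits lie within the span of MRPL23.

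IGF2, the growth factor made from the paternal copy, had the other highly ranked site of the cluster about 2 kb upstream of its 5′ end. CTCF was listed there at chr11:2149723-2153272 in control cells (94.5th percentile by total signal), at chr11:2149733-2153272 after ICM (94.5th) and at chr11:2149875-2152985 in senescent cells (98.0th). SMC1 was listed in all 3 conditions too, at the 65.0th, 83.2nd and 95.9th percentile. The SMC1 summits of control and ICM-treated cells were both at 2151649, which was also the CTCF summit after ICM, and the senescent SMC1 summit was 239 bp away, on the IGF2 side. All of these lie within the span of INS-IGF2, the readthrough gene of insulin and IGF2.

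A further site in all 6 lists lay between the genes, 35.9 kb upstream of H19 on the side of IGF2. Its CTCF peaks were at the 60.5th percentile in control, the 68.2nd after ICM and the 84.6th in senescent cells, and the SMC1 peaks at the 31.0th, 67.2nd and 89.6th. The 6 summits fell within 92 bp of each other. The 27.9 kb between the H19 and IGF2 windows, which no window covers, held 0 peaks in all 6 lists.

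Of the other 6 sites in the IGF2 window, 3 carried CTCF at lower rank and 3 carried SMC1 alone. CTCF was listed 7.02 kb upstream of the IGF2 5′ end in all 3 conditions with its summit at 2156583 each time, at the 20.9th, 40.0th and 12.8th percentile. SMC1 joined it in the senescent list alone, with its summit 7 bp away. At 45.5 kb upstream, CTCF stood at the 16.3rd percentile in control, the 45.5th after ICM and the 74.1st in senescent cells, with no SMC1 peak. At 47.9 kb upstream CTCF stood at the 14.3rd, 20th and 52.6th percentile. SMC1 was listed there after ICM with a total signal of 2459, close to the list minimum of 2455, and in senescent cells at the 27.8th percentile, but not in control. The 3 sites with SMC1 alone were in 1 or 2 lists each.

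At the far edge of the H19 window, a CTCF peak near the start of MRPL23 was in all 3 lists, at the 66.3rd, 80.2nd and 83.4th percentile. Its summit was within 1 kb of the MRPL23 5′ end in control and ICM-treated cells and 1859 bp from it in senescent cells. SMC1 was listed there after ICM alone, at the 74.8th percentile. The CTCF site of senescent cells alone lay a little further inside MRPL23, at the 20.8th percentile.

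**Figure D2:**
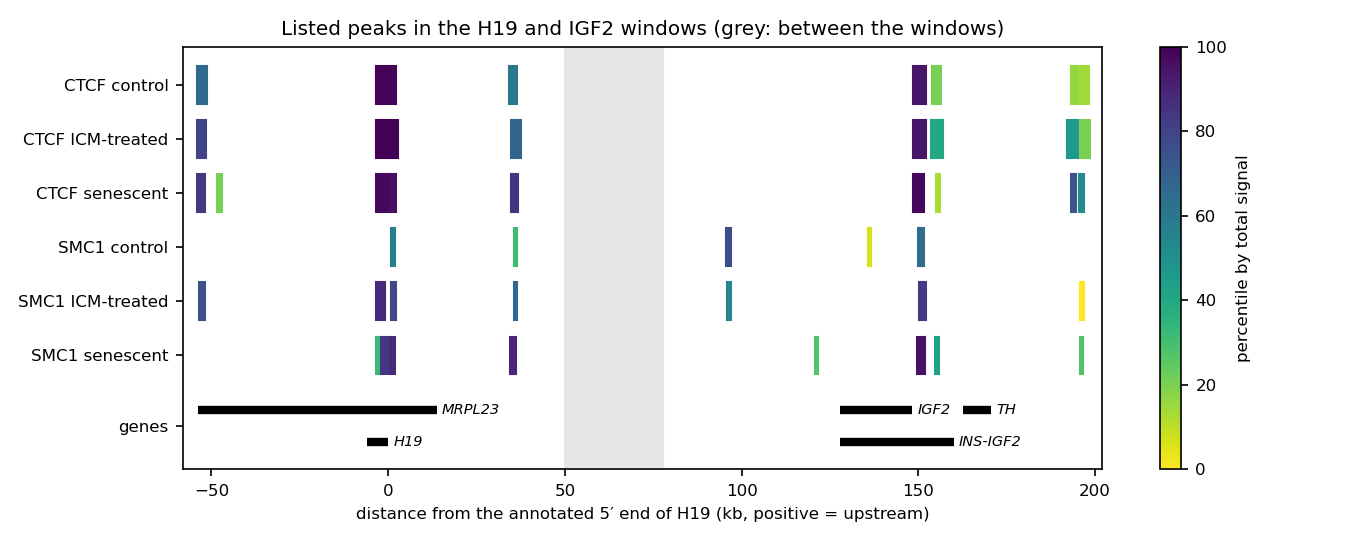
Peaks of the 6 lists across the H19 and IGF2 windows, drawn by distance in kb from the H19 5′ end, with a row for each list, genes as black bars, the stretch between the windows in grey and colour giving the percentile by total signal. The stretch at H19, the site 35.9 kb upstream and the site just upstream of IGF2 were listed for both antibodies in all 3 conditions.

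MEG3, a maternally expressed long noncoding RNA, carried a CTCF site whose summit did not move between the lists, as at the site 7.02 kb upstream of IGF2. CTCF was listed just inside MEG3 in all 3 conditions with the summit at 100828212 each time, 2104 bp downstream of the 5′ end, at the 69.7th percentile by total signal in control, the 83.6th after ICM and the 79.6th in senescent cells. By highest signal it stood at the 82nd, 84.3rd and 81.2nd percentile. After ICM the peak was 3088 bp wide (chr14:100825748-100828835) and reached across the promoter window printed above, against 1130 bp in control and 1282 bp in senescent cells. SMC1 was listed at this site after ICM (37.6th percentile) and in senescent cells (3.48th), with summits 81 and 84 bp from that of CTCF, and not in control.

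DLK1, the paternally expressed ligand-like gene of the same cluster, had no CTCF peak within 50 kb in any list. SMC1 was listed 33.6 kb from its 5′ end in control cells (14th percentile), on the side away from MEG3, and at the same site after ICM (59.2nd). In ICM-treated and senescent cells a peak lay 20.4 kb away, toward MEG3, at the 21.1st and 59.1st percentile, and its summits were 25 bp apart. The IG-DMR, the germline control region of this cluster, placed from 13 to 18 kb upstream of MEG3, held 0 peaks in all 6 lists.

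KCNQ1OT1, the paternal antisense transcript that starts inside KCNQ1, had SMC1 at its start and no CTCF peak. The SMC1 summits lay 143 bp upstream of the 5′ end in control, 140 bp after ICM and 203 bp in senescent cells. The percentiles by total signal were 71.0, 60.0 and 32.1 in that order. No CTCF peak of any list lay within the KCNQ1OT1 window, and the nearest was 167 kb from its 5′ end in all 3 lists, inside KCNQ1, at the 98.3rd percentile in control, the 98.0th after ICM and the 99.1st in senescent cells.

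PEG10, a gene derived from a retrotransposon, and SGCE, a sarcoglycan gene, start back to back and shared their peaks. SMC1 was listed just inside PEG10 in all 3 conditions, at chr7:94657626-94658631 in control (90.5th percentile), chr7:94657763-94658627 after ICM (77.7th) and chr7:94657834-94658691 in senescent cells (59.1st). CTCF was listed there in senescent cells alone, near the bottom of its list at the 9.95th percentile, with its summit 95 bp from that of SMC1. In control cells the nearest CTCF peak was 1823 kb away.

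PEG3, a paternally expressed zinc finger gene, was occupied in the senescent lists alone. CTCF was listed at chr19:56837499-56839452 (total signal 14760, 71.6th percentile) and SMC1 at chr19:56837517-56840050 (10762, 96.2nd percentile). These peaks overlapped, but their summits were 1252 bp apart, so the pair was not shared by the summit rule. By highest signal the CTCF peak was only at percentile 4.1, and the SMC1 peak at the 65.4th.

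SNRPN, whose promoter region is the Prader-Willi imprinting center, and GNAS, the gene of the stimulatory G protein alpha subunit with several promoters that are methylated on opposite copies, had no listed peak in their windows. The nearest peak to the SNURF 5′ end was 484 kb away in both control lists and between 739 and 979 kb away in the other 4 lists. For GNAS the nearest peak was 188 to 189 kb from the outermost 5′ end in all 6 lists and belonged to 1 place, with summits between 58650978 and 58651265, that both antibodies occupied in all 3 conditions. A locus without a listed peak is one whose signal was below the top 1% that the peak caller kept, and this does not show that CTCF or SMC1 was absent.

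Set against all genes, these imprinted genes were not unusual in having a peak nearby. CTCF was listed within 50 kb of 3 of the 10 genes in control, 3 after ICM and 6 in senescent cells, against 31.4%, 39.4% and 43.6% of 38340 protein-coding and lncRNA genes. SMC1 was listed near 6, 7 and 8 of 10, against 55.9%, 57.7% and 52.0%. The genes near CTCF in control and ICM-treated cells were H19, IGF2 and MEG3, and PEG3, PEG10 and SGCE were added in senescent cells. The genes of a pair share windows and are not independent.

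Among 9 control regions, 5 held a peak in some list. CTCF overlapped 2 in control (H19 and the MEG3 promoter region), the same 2 after ICM, and 4 in senescent cells, where PEG10/SGCE and PEG3 were added. SMC1 overlapped 3 in control (H19, KCNQ1OT1 and PEG10/SGCE), 4 after ICM with the MEG3 region, and 5 in senescent cells with PEG3. The IG-DMR, the Prader-Willi center and both regions placed at GNAS held 0 peaks. Except for H19, where the region was measured upstream of the start, and PEG3 and the IG-DMR, the regions were placed within 2 kb of an annotated start and only approximate the methylated segment.

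**Figure D3:**
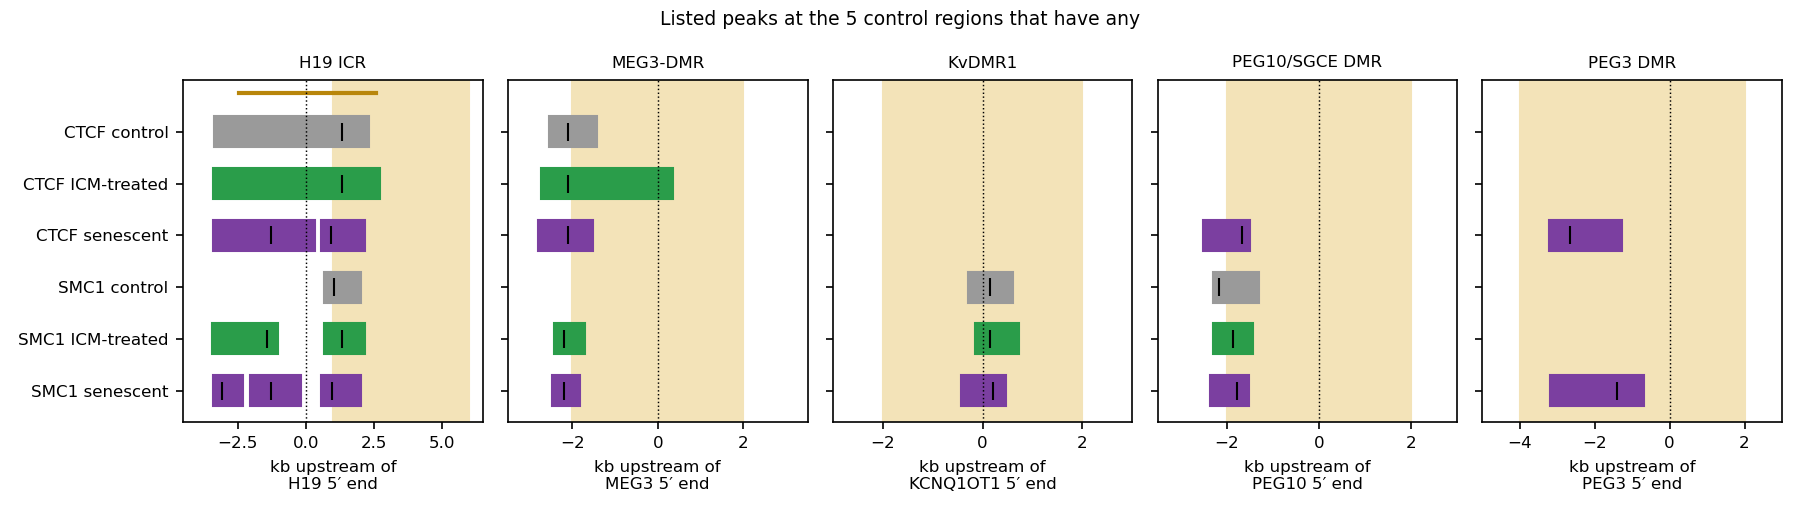
Peaks at the control regions that held any, by distance from the 5′ end of the gene named in each panel, with 1 row per list. The shaded stretch is the region as placed, the gold bar in the H19 panel is its placement from MIR675, and black ticks are summits. H19 is covered in all 6 lists, KCNQ1OT1 by SMC1 alone, and PEG3 in the senescent lists alone.

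In count, CTCF peaks at these genes that coincided with SMC1 were fewest in control cells. In control cells alone the CTCF and SMC1 libraries differed in p number (21 and 16), which cannot be told apart from the condition here. By the summit rule, 1 of 8 CTCF peaks (12.5%, exact 95% interval 0.316 to 52.7%) had an SMC1 peak in control cells, 4 of 8 (50%, 15.7 to 84.3%) after ICM and 7 of 12 (58.3%, 27.7 to 84.8%) in senescent cells. Over the genome these shares ran the other way, at 48.9%, 46.6% and 34.8%. By overlap of whole peaks, 3 of 8, 6 of 8 and 9 of 12 CTCF peaks had SMC1, against 75.8%, 72.6% and 50.2% over the genome. Peaks of a cluster are neighbours and not independent, and the intervals by the summit rule were wide enough to include the share over the genome in each of the 3 conditions. By whole peaks the control interval (8.52 to 75.5%) ended just below the share over the genome.

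SMC1 ranked higher in the senescent than in the control list at the 3 sites it shared with CTCF in all conditions, and lower at KCNQ1OT1 and PEG10, a comparison made after the values were seen. At the 3 sites listed for both proteins in all 3 conditions (H19, 35.9 kb upstream of H19, and upstream of IGF2), the best SMC1 percentile by total signal was higher in the senescent than in the control list at all 3, with a median difference of 30.9 points. In the genome, 46.8% of 2461 such sites stood higher in the senescent list, with a median difference of -0.502 points. At the 2 sites with SMC1 in all 3 lists and no CTCF peak in control or ICM-treated cells (KCNQ1OT1 and PEG10) it was lower in the senescent list at both, although PEG10 had CTCF in that list, with a median difference of -35.2 points. In the genome, 43.4% of 4509 such sites stood higher in the senescent list, with a median difference of -4.21 points. By the best peak, ICM-treated cells lay between the other conditions at 4 of these 5 sites. At H19 their best peak stood at the 88.7th percentile against the 88.0th in senescent cells, but these peaks lay at different places in the stretch. The ICM peak upstream of the RefSeq 5′ end, as in the other conditions, stood at the 78.3rd percentile, between control (57.1st) and senescent cells.

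By highest signal the directions were the same, where 52.5% and 45.9% of these classes of sites in the genome stood higher. The percentiles went from the 3.13rd to the 40.1st percentile at H19, from the 20.5th to the 71.5th at 35.9 kb upstream, from the 5.47th to the 71.5th upstream of IGF2, from the 73.7th to the 30.2nd at KCNQ1OT1 and from the 87.5th to the 58.3rd at PEG10. A percentile depends on which other peaks a list holds, and highest signal takes few whole values, so equal ranks are common. With 1 library per condition these shifts have no replicate check. For CTCF, 6 of the 8 sites in all 3 lists stood higher by total signal in the senescent than in the control list, against 74.2% over the genome, and 4 of 8 did by highest signal, against 64.6%.

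**Figure D4:**
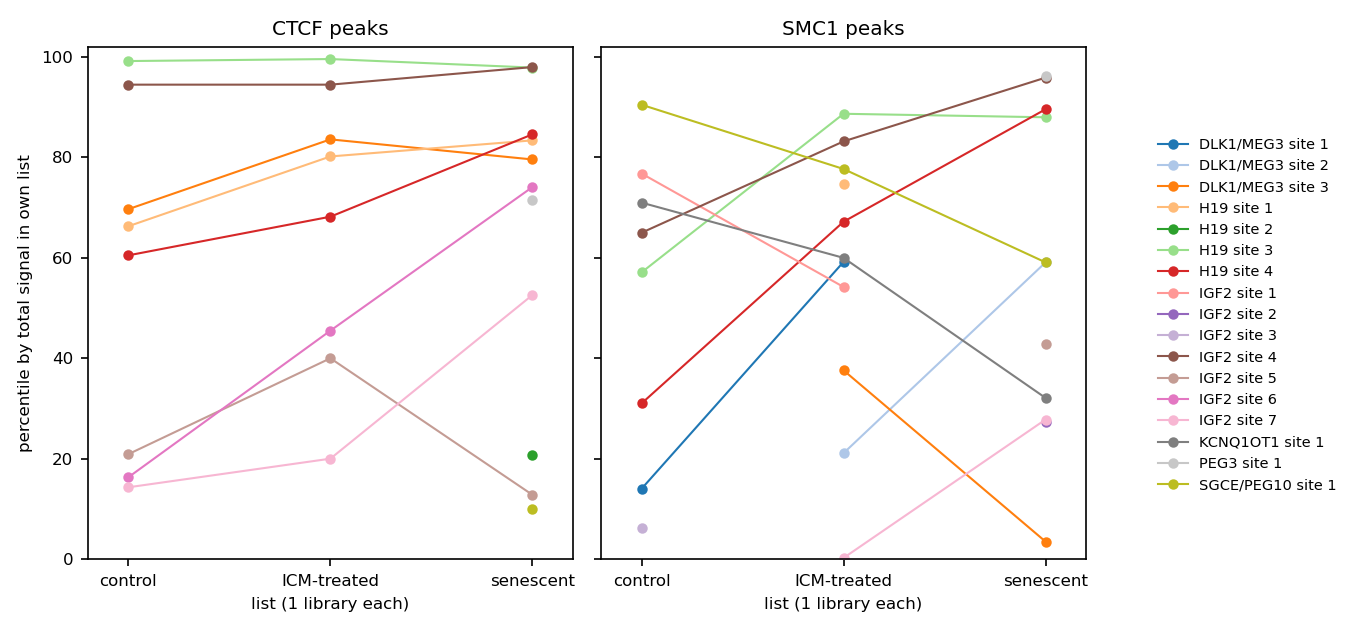
Percentile by total signal, within its own list, of the best ranked peak of each of the 17 sites, by condition and antibody, with lines joining neighbouring lists that hold the site and sites numbered by position along the chromosome. H19 site 3 is the stretch at H19, H19 site 4 the one 35.9 kb upstream and IGF2 site 4 the one just upstream of IGF2. The SMC1 peaks at these 3 sites stand higher in the senescent list than in control, and those at KCNQ1OT1 and PEG10 stand lower.

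Few promoters of these genes had a summit close to the start, and for CTCF the counts were near the share over protein-coding genes. With a summit within 1 kb of the 5′ end taken as a promoter peak, CTCF had 0 of the 10 genes in control, 0 after ICM and 1 (H19) in senescent cells, against 8.76%, 12.6% and 9.55% of 19675 protein-coding genes. SMC1 had 1 (KCNQ1OT1), 1 (KCNQ1OT1) and 2 (H19 and KCNQ1OT1), against 31.5%, 27.6% and 22.2%, a difference that was not tested. The sets are unlike, because H19, MEG3 and KCNQ1OT1 are lncRNA genes and the shares cover protein-coding genes alone. Every promoter peak among the 10 genes was at H19 or KCNQ1OT1, and no protein-coding gene among them had one in any list. The H19 stretch was occupied in every list, and its promoter count turned on the 1 kb limit. Its nearest upstream summits were at 926 bp (CTCF) and 974 bp (SMC1) in senescent cells. In control cells they were at 1327 and 1053 bp, and after ICM both were at 1327 bp. This stretch is also not separated from the control region. Among 19 other genes of the same clusters, SMC1 was at 3 in control cells, CDKN1C (a cell-cycle inhibitor), PHLDA2 and UBE3A (a ubiquitin ligase of the SNRPN cluster), and at 0 in ICM-treated and senescent cells. CTCF was at the UBE3A promoter in control cells, at the 11.3rd percentile, and at none of the 19 in the other lists. Among 17 genes imprinted elsewhere, SMC1 was at BLCAP in all 3 lists, INPP5F in control and ICM-treated cells and RB1 in control cells, and CTCF at none.

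The fibroblast label was checked in the same way. SMC1 promoter peaks were found at 9 of 12 fibroblast genes in control, 6 after ICM and 4 in senescent cells, among them COL1A2 in all 3 lists. The shares over protein-coding genes were 31.5%, 27.6% and 22.2%. Genes of leukocytes, lung epithelium and endothelium had promoter peaks at 0 of 9 in every list of both antibodies. CTCF promoter peaks were found at 0, 4 and 1 of the 12 fibroblast genes, against 8.76%, 12.6% and 9.55% of protein-coding genes. The senescent SMC1 count and the control and senescent CTCF counts were near these shares. No difference was tested.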

How the data were processed

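CUT&Tag peak lists for CTCF and SMC1, 1 per library (6 libraries), were used as the authors deposited them. Per the labels and the methods of the study, alignment to GRCh38 used Bowtie2 2.3.4.1, Picard 2.20.7 and deepTools followed, coverage was calibrated to E. coli DNA, and SEACR 1.3 kept the top 1% of regions in stringent mode in each library. The values the authors deposited are signal per peak (total and highest coverage), whole numbers without a common scale between lists. The lists hold no read totals, so depth is unknown here. Chromosome 17 peaks reach 83206712, beyond the end of that chromosome in GRCh37. The study describes a CTCF motif filter, and motif searches are not reported here.

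From the lists, peaks with their summit inside the gene windows were taken with Python 3.11.15 (pandas 2.3.3), leaving out mitochondrial DNA. Gene positions came from RefSeq (GRCh38.p14), strand from GENCODE v44 by symbol and from the RefSeq promoter table. Genes without a 5′ end were left out of promoter counts (19675 of 20056 protein-coding genes had one). Exon and intron positions were not used here. The senescent titles name no treatment and were assigned from the design of the series. The rule for named loci took each member gene, each locus at a control region or within 1 kb of a member start, the best ranked locus per window and antibody, and loci in all lists of both antibodies, with further IGF2, H19 and DLK1 sites added afterwards. Members and lists were chosen with earlier results of these data known. Alternatives were the flank, list length, overlap rule and region placement. The counting steps were tested on simulated data.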

Additional observations from a re-analysis of the deposited data

How the results depend on the processing

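No result that compares conditions has a replicate, and the unknown depth of each library limits what a missing peak means. Of 84 values under an alternative, for 17 results, 63 stayed within 1.5 times the reported count or inside the exact 95% interval of the reported share, and 21 did not. These intervals are wide, so that control CTCF peaks with SMC1 at 37.5% by whole peaks, against 12.5%, and SMC1 loci in all 3 lists at 21.1% with a reciprocal overlap of 50%, against 8.70%, count among the 63. With no flank, so that gene bodies alone were used, peaks numbered 1, 1 and 4 for CTCF and 2, 3 and 5 for SMC1 (control, ICM-treated, senescent), no SMC1 locus was in all 3 lists (0%), and CTCF peaks with SMC1 were 0% in control and 100% after ICM, each of 1 peak. With lists cut to equal length by highest signal, CTCF had 8 peaks in control, 5 after ICM and 6 in senescent cells, and 2 control regions held senescent CTCF. In such lists the senescent SMC1 list held 13 peaks against 6 in control by highest signal and 7 by total signal. Joining whole peaks put 72.7% of CTCF and 31.2% of SMC1 loci in all 3 lists. With a reciprocal overlap of 50%, 0% of control CTCF peaks had SMC1. Counting a control region only when a summit lay inside gave 1, 1 and 2 regions for CTCF and 3 for senescent SMC1. With the H19 region placed from MIR675, added after seeing the data, it gave 1 for CTCF in control and 1 after ICM. With a flank of 100 kb no value passed these margins, though control CTCF peaks with SMC1 went to 22.2%. The cause of each shift was not tested beyond what the construction of the alternative shows. No paired analysis was possible because each antibody and condition has 1 library.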
